A study of Homo sapiens with 6 samples.

Results

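Integrins are cell surface receptors made of 1 alpha and 1 beta subunit that bind the extracellular matrix outside the cell and, through a set of adaptor proteins, actin filaments inside it. Talins and kindlins bind the tails of the beta subunits and switch the receptor to its active form. The kinase-like protein ILK with its partners PINCH (LIMS1, LIMS2) and parvin, and vinculin, paxillin, zyxin and focal adhesion kinase (PTK2), build the focal adhesion around it. Neural crest cells leave the neural tube as migrating cells and use integrins to move on fibronectin and laminin. The genes described here are 40 listed by symbol, namely 25 integrin subunits (17 alpha, 8 beta) and 15 adaptors and kinases. They were found by gene identifier in the deposited table of 23284 genes, which held all 40.

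RNA came from WA01 (H1), an established human embryonic stem cell line of wildtype genotype, in 3 groups of 2 libraries, namely undifferentiated cells (day 0), pre-neural crest cells (day 3) and neural crest cells (day 5). Induction, per the labels, used 3 µM of the GSK3 inhibitor CHIR99021, which activates WNT signalling, in a medium holding 0.5% albumin and 2% B27, after plating at 20000 cells per cm2 on Matrigel, a laminin-rich basement membrane extract. Y-27632 (10 µM), an inhibitor of the kinase ROCK, which drives actomyosin contraction, was present over the opening days. The labels give these conditions for the day 0 libraries too, so whether undifferentiated cells were handled in that way is not known. The effects of time, medium, plating and inhibitor cannot be told apart in this design. All cells are of 1 line, and the labels do not say whether the 2 libraries of a group came from separate cultures, so the deposited p-values may measure technical spread only.

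FPKM (fragments per kilobase of transcript, scaled to sequencing depth) is given once per gene and day. Because single libraries have no values of their own, neither their spread nor their depth is known. Genes are called higher or lower by the authors' deposited table, at q below 0.05. Log2 changes are ratios of group FPKM, each with ± its standard error as worked back from the authors' test statistic. As a check of the labels, the FPKM values of 6 embryonic stem cell markers summed to 2261, 786 and 476 over the 3 days, and 9 neural crest markers to 31.2, 19.9 and 119.8. Of the stem cell markers POU5F1, NANOG, TDGF1, DNMT3B and ZFP42 fell by day 3, whereas LIN28A, at 395.7, 555.1 and 418.5, was not called and made up most of the later sums. All 9 crest markers were at an FPKM of at least 1 on day 5, against 4 on day 0. FOXD3 (17.9, 0.876 and 15.4) made up most of the day 0 sum. Both FOXD3 and ETS1 (7.27, 1.11 and 6.14) fell by day 3, rose afterwards and were not called over the course. The other crest markers, SOX10, PAX3 and TFAP2A among them, were called higher over the course. In these bulk samples, fewer cells expressing a gene and less RNA per cell cannot be told apart.

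Both integrin subunits and adaptors held called genes: 11 of the 25 subunits and 7 of the 15 adaptors were called at least once. The share of all genes called at least once was not computed, so these counts have no background beside them. The main beta subunit ITGB1 was not called in any comparison. From day 0 to day 5, the fibronectin receptor subunit ITGA5 and the subunit ITGA4 rose, and the laminin receptor subunits ITGA3, ITGA6 and ITGB4, the collagen receptor subunit ITGA2 and the vitronectin receptor subunit ITGB5 fell. Among adaptors PARVA rose, and PARVB, PARVG, PXN, FERMT1 and LIMS2 fell. Of the 40 genes, 30 reached an FPKM of at least 1 on some day and 11 stayed at 10 or more on every day. Those 11 were ITGB1, VCL, ZYX, ILK, FERMT2, PTK2, ITGA6, PXN, TLN1, ITGB5 and ITGA7. The authors tested 32 of the 40 in at least 1 comparison, and 18 of these were called at least once, again without a share over all genes.

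Between day 0 and day 3, 3 of 31 tested members were called higher and 9 lower. Over all genes tested in that comparison 8.96% were called higher and 11.6% lower, 20.6% together, against 38.7% of the tested members. Between day 3 and day 5, 4 of 30 were higher and 3 lower, which is 23.3% together, against 5.93% higher, 6.68% lower and 12.6% together of all genes tested. Between day 0 and day 5, 3 of 32 were higher and 11 lower, against 12.2% higher and 14.7% lower of all genes tested. The 3 comparisons share their groups, so these counts are not independent of one another. The median log2 ratio of FPKM plus 1 over all 40 members was -0.15 by day 3, 0.0028 from day 3 to day 5 and -0.08 from day 0 to day 5. Over the tested members alone it was -0.32, -0.035 and -0.17. The like values over all genes tested were 0.03, -0.036 and -0.0071. ITGA8, ITGAM and PARVG were tested in some comparisons only, those that include a day on which they were high, so their being tested is tied to their being different.

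Many calls depend on how the p-value is made. When p was recomputed from the deposited test statistic with a normal distribution, the members called by day 3 were ITGA5 and ITGB8 (higher) and ITGA3, ITGAM, ITGB5 and PXN (lower). From day 3 to day 5 they were ITGA8, ITGAV and FERMT1. Over the course ITGA4, PXN, PARVB and LIMS2 lost their calls and ITGA8 gained one. The share of all genes called in this way was not computed.

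**Figure D1:**
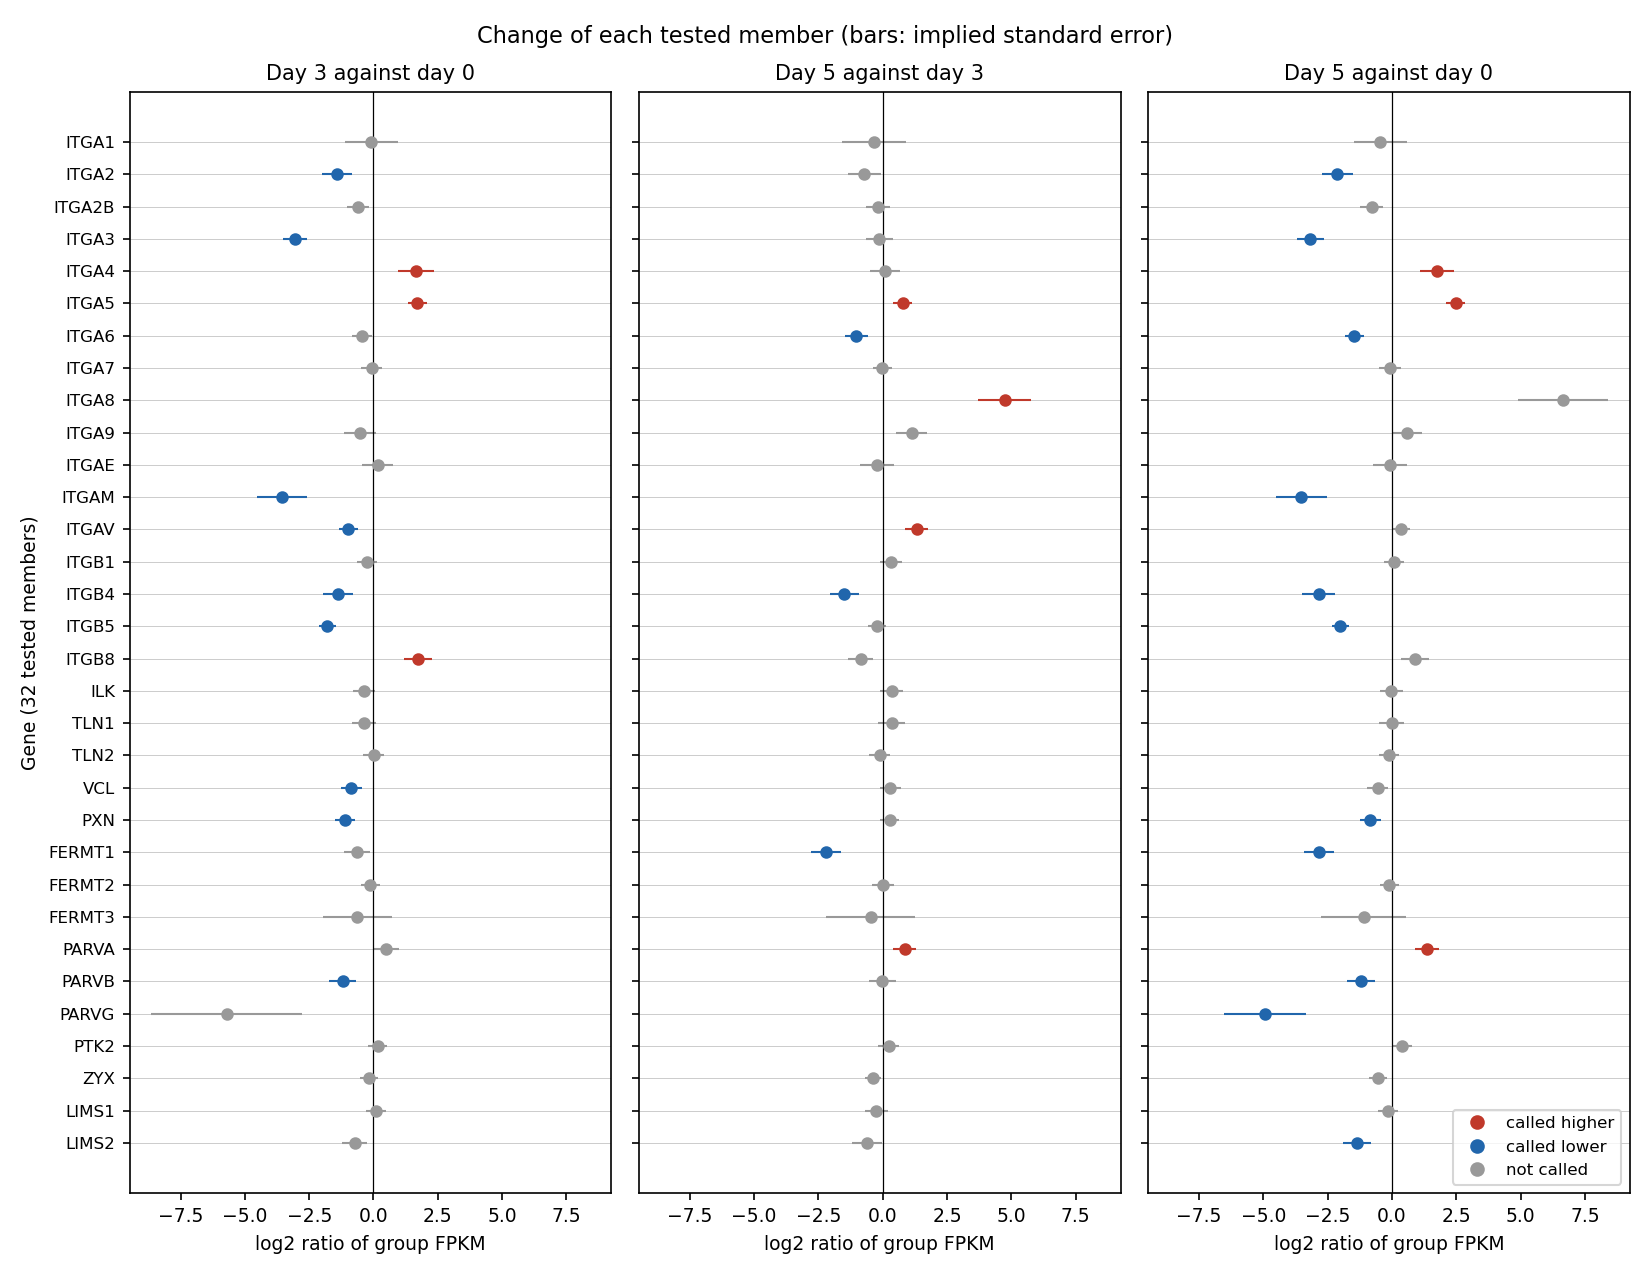
Log2 ratio of group FPKM for the 32 tested members in each comparison, with the implied standard error as bars; red marks genes called higher, blue genes called lower and grey genes not called. ITGA5 lies to the right of 0 and is called in all 3 panels, ITGB4 lies to the left and is called in all 3, and ITGB1, ILK, TLN1 and FERMT2 are grey throughout.

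Integrins with an RGD-binding alpha subunit recognise the sequence Arg-Gly-Asp in fibronectin, vitronectin and related proteins. ITGA5 (hg19, chromosome 12, 54789045 to 54813050), which pairs with ITGB1 as the main fibronectin receptor, had FPKM values of 4.92, 16.0 and 27.3 over the 3 days. It rose in both steps, by a log2 ratio of 1.70 ± 0.37 and then 0.77 ± 0.36, and was 5.56-fold higher on day 5 than on day 0 (log2 2.47 ± 0.38). For the second step the authors' deposited table gives a q of 0.0282. ITGA5 was the only member called higher in both steps.

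ITGAV (chromosome 2, 187454790 to 187545628), the partner of several beta subunits in vitronectin and fibronectin receptors, followed another course, with FPKM values of 11.9, 6.09 and 15.2. It fell by 0.97 ± 0.38 on the log2 scale to day 3 and rose by 1.32 ± 0.44 to day 5. Day 5 was not called against day 0 (log2 0.34 ± 0.36, q of 0.439 in the authors' deposited table). ITGAV was the only member called in opposite directions in the 2 steps.

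ITGA8 (chromosome 10, 15559088 to 15761770), another partner of ITGB1, was near 0 on day 0 and day 3, at 0.0101 and 0.0379, and at 1.01 on day 5. The step from day 3 was called, with a log2 ratio of 4.74 ± 1.02. Day 5 against day 0 was not, although its log2 ratio was 6.64 ± 1.75 and its q was 0.202 in the authors' deposited table. ITGA2B, the platelet fibrinogen receptor subunit, was at 2.70, 1.78 and 1.56 with no call, while its only known partner ITGB3 stayed between 0.0210 and 0.0433. Of 5 platelet and megakaryocyte markers, PF4 went from 9.76 to 0.0419 and 0.0490, GP1BA from 0.490 to 0.560 and 0.855, and TUBB1 from 0.250 to 0.515 and 0.343, all without a call. PPBP was at 0.0825 on day 0 and listed at 0 afterwards, and GP9 was listed at 0 on every day. Their part in the ITGA2B values was not tested.

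Of the laminin-binding alpha subunits, ITGA6 (chromosome 2, 173292314 to 173371181) was the highest alpha subunit of undifferentiated cells. Its FPKM values were 44.3, 32.5 and 16.0. Its first step was not called (log2 -0.45 ± 0.39), and from day 3 to day 5 it fell by 1.02 ± 0.44. ITGA3 (chromosome 17, 48133340 to 48167849) changed earlier, with values of 8.12, 0.985 and 0.902. It fell 8.25-fold by day 3 (log2 -3.04 ± 0.48), the largest fall among the called members at an FPKM of at least 1 in that step, and the next step was -0.13 ± 0.52 with no call. Whether the timing of ITGA3 and ITGA6 differed was not tested. ITGA7, the third of this class, stood at 13.9, 13.2 and 13.1 with no call, and its day 5 to day 0 ratio was -0.08 ± 0.43. Its locus in the table is shared with METTL7B.

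ITGB4 (chromosome 17, 73717516 to 73753899), which pairs with ITGA6 in the hemidesmosomes of epithelia, was low throughout, at 1.39, 0.540 and 0.193. It fell in both steps (log2 -1.37 ± 0.58 and -1.49 ± 0.57) and was 7.22-fold lower on day 5 than on day 0. ITGB4 was the only member called lower in both steps. The q values of the 2 steps were 0.0124 and 0.0186 in the authors' deposited table. Neither step kept its call at q below 0.01 or under the p recomputed with a normal distribution.

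Among collagen-binding alpha subunits ITGA2 (chromosome 5, 52285156 to 52390609) went from 1.64 to 0.615 and 0.375. It fell by 1.42 ± 0.58 on the log2 scale to day 3, and its ratio over the whole course was -2.13 ± 0.60. ITGA1 stood at 1.09, 1.02 and 0.799 with no call, with a wide error (log2 -0.45 ± 1.05 over the course), and its locus overlaps PELO. ITGA10 and ITGA11 never exceeded 0.0482 and were not tested.

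ITGA4 and ITGA9 bind fibronectin segments outside the RGD site, tenascin and other ligands. ITGA4 (chromosome 2, 182321619 to 182521834), a subunit of migrating crest cells in other vertebrates, went from 0.414 to 1.31 and 1.39. It rose by day 3 (log2 1.66 ± 0.70) and was level afterwards within its error (0.08 ± 0.59). Its locus is shared with CERKL. ITGA9 was at 0.696, 0.483 and 1.06, and its last step (1.13 ± 0.60, q of 0.0582 in the authors' deposited table) was not called.

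Of the beta subunits, ITGB1 (chromosome 10, 33189246 to 33247293), the partner of most alpha subunits named here, was the highest integrin mRNA on all 3 days, at 119.6, 100.4 and 125.5. None of its comparisons was called, and the ratio of day 5 to day 0 was 0.07 ± 0.39 on the log2 scale, an error that leaves room for a moderate change in either direction. ITGB5 (chromosome 3, 124481795 to 124606144), which forms a vitronectin receptor with ITGAV, was at 56.4, 16.2 and 14.0. It fell 3.48-fold by day 3 (log2 -1.80 ± 0.33) and its second step was not called (-0.21 ± 0.35). ITGB8 (chromosome 7, 20370725 to 20455382), which with ITGAV binds the latent form of TGF-beta, was highest on day 3, at 0.868, 2.88 and 1.59. It rose by day 3 (1.73 ± 0.54), and the later ratio of -0.85 ± 0.49 fell just outside the threshold (q of 0.0504 in the authors' deposited table). ITGB3 and ITGB6, further partners of ITGAV, stayed below 0.0434 and were not tested.

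**Figure D2:**
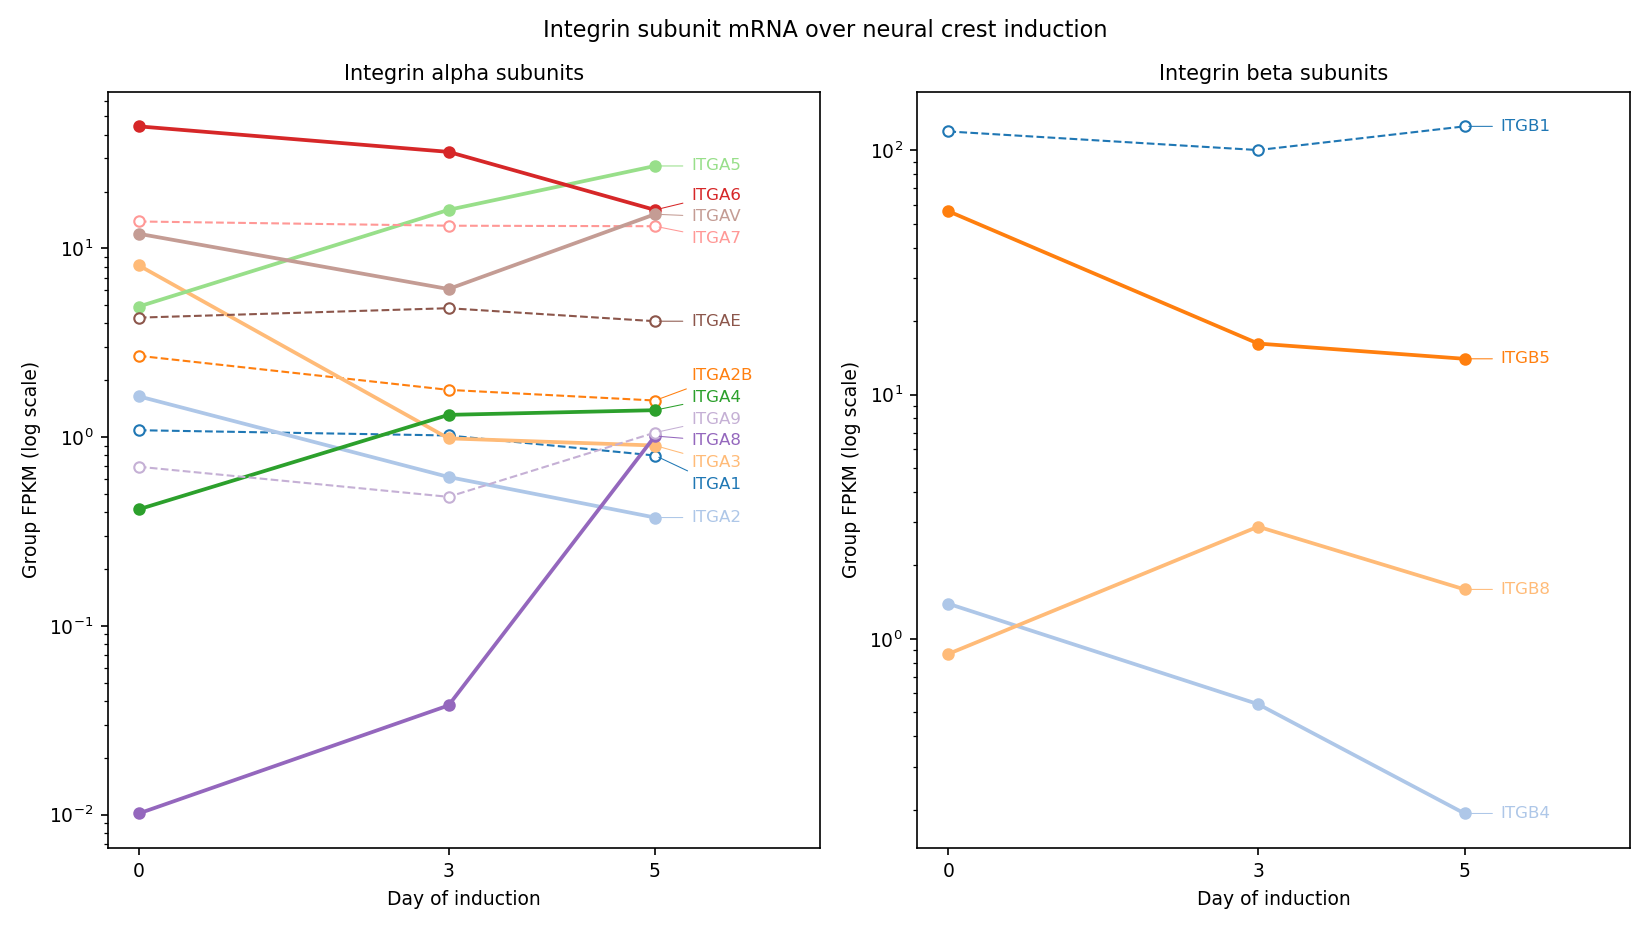
Group FPKM on a log axis against day of induction for the integrin subunits that reached an FPKM of at least 1, alpha subunits on the left and beta subunits on the right, with 1 value per day from 2 combined libraries. Filled points on solid lines are genes called in at least 1 comparison and open points on dashed lines genes called in none; ITGA5 crosses above ITGA6 between day 3 and day 5, and ITGB1 stays at the top.

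Since FPKM is scaled to length, subunits can be set beside each other. The 17 alpha subunits summed to FPKM values of 94.5, 79.0 and 83.1 over the 3 days. ITGA6 made up 46.9%, 41.1% and 19.2% of that sum, and ITGA5 5.20%, 20.2% and 32.9%, so that ITGA5 moved from the fifth place to the second and then the first. ITGA3 went from 8.59% to 1.25% and 1.09%, and ITGAV from 12.6% to 7.70% and 18.3%. On day 5 ITGA6, ITGAV and ITGA7 followed ITGA5 at 16.0, 15.2 and 13.1, values closer to each other than the implied errors of their changes. The 8 beta subunits summed to 178.5, 120.2 and 141.6. ITGB1 made up 67.0%, 83.5% and 88.6% of the beta sum and ITGB5 31.6%, 13.5% and 9.90%. These shares are descriptions without an error, because the table gives no value per library.

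**Figure D3:**
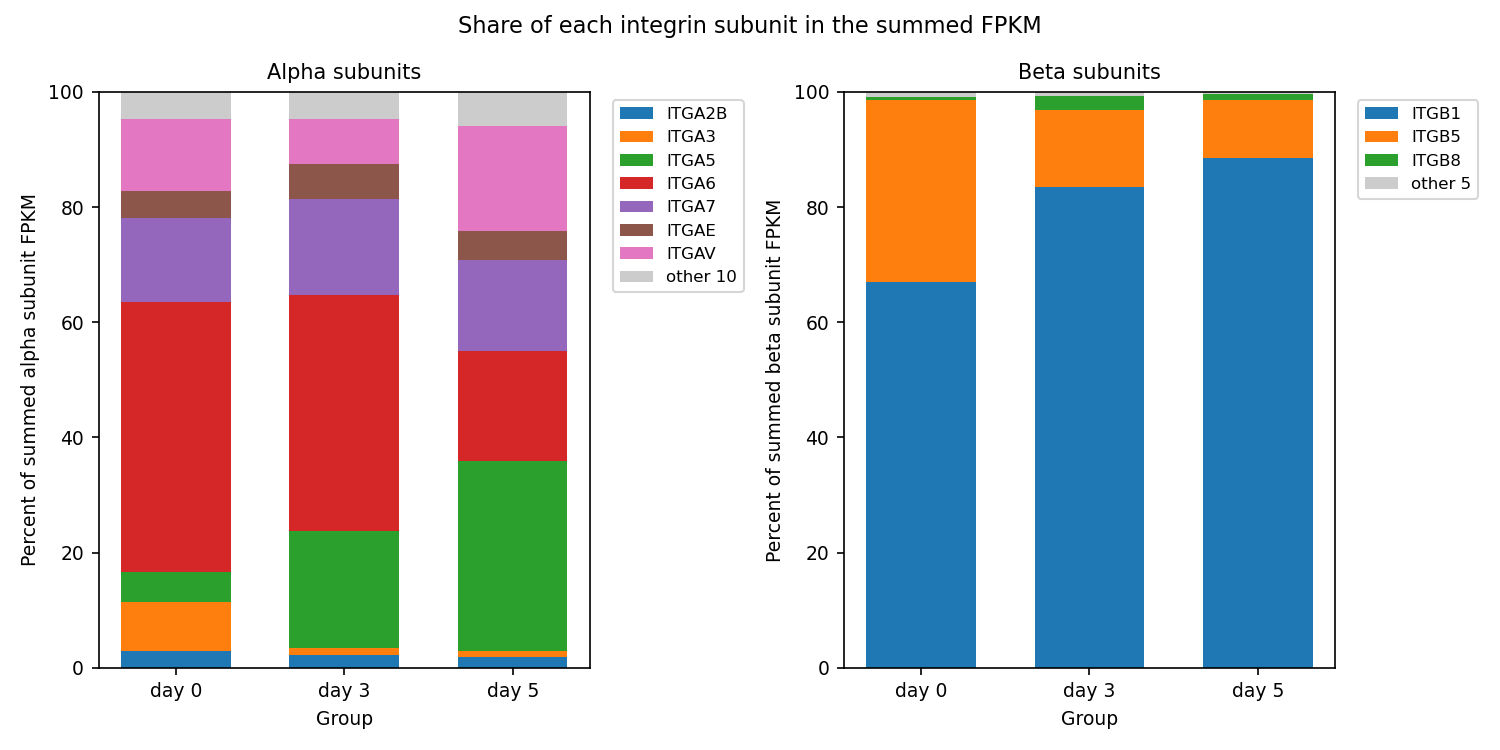
Percent of the summed FPKM of 17 alpha subunits (left) and 8 beta subunits (right) by day, each bar 1 group of 2 combined libraries; subunits under 2% on every day are pooled as other. The ITGA6 part shrinks from 46.9% to 19.2% while that of ITGA5 grows from 5.20% to 32.9%, and the ITGB5 part shrinks from 31.6% to 9.90%.

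Subunits of leukocyte integrins were low, apart from ITGAE, whose locus also holds GSG2 and which stood at 4.30, 4.82 and 4.11 with no call. ITGAL, ITGAX, ITGB2 and ITGB7 stayed between 0.0311 and 0.211 and were not tested. ITGAM was at 0.283, 0.0243 and 0.0245 and was called lower by day 3 (log2 -3.54 ± 0.97), at a level below an FPKM of 1. The 8 leukocyte markers summed to 9.59, 11.2 and 7.20, most of it CORO1A (6.94 on day 0, 9.67 on day 3), with PTPRC at 0.0328 or less and CD3E at 0.00676 or less. LCP1, another of them, fell from 1.43 to 0.0587 by day 3. Their part in the ITGAM value was not tested.

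The promoters of the 3 genes called higher by day 3 are shown beside those of ITGA2 and VCL. These 2 were called lower in that step and also have a single annotated start. ITGAM, below an FPKM of 1, likewise has a single start and was called lower by day 3, but its sequence is not shown. Each is the 250 bases before the annotated start, from RefSeq on GRCh38.p14 (not the hg19 build of the expression table). Of the 40 members 29 had an entry, 20 of them with 1 start. Capitals mark matches on either strand to GGGCGG (a GC box, bound by SP factors) and GGAATG (a TEAD motif).
ITGA4, chr2:181457136-181457385, plus strand: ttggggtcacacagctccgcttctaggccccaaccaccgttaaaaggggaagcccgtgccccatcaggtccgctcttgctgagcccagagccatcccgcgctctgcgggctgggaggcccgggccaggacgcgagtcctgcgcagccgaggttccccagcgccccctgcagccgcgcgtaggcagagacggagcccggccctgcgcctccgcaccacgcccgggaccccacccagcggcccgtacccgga
ITGA5, chr12:54419267-54419516, minus strand: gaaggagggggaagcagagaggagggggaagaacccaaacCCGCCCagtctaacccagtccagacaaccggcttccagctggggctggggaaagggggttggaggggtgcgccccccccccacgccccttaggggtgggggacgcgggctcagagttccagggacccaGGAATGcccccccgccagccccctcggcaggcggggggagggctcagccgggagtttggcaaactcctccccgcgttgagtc
ITGB8, chr7:20330650-20330899, plus strand: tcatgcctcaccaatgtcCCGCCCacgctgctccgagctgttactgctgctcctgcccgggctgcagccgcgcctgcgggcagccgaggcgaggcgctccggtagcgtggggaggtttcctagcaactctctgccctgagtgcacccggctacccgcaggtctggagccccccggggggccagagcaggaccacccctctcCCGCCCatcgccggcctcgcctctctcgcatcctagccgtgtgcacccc
ITGA2, chr5:52989102-52989351, plus strand: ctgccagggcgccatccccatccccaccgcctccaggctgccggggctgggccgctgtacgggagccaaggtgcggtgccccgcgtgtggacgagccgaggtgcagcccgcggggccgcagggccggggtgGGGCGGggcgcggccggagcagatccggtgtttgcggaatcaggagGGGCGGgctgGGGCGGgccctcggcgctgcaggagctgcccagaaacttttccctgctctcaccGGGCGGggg
VCL, chr10:73997866-73998115, plus strand: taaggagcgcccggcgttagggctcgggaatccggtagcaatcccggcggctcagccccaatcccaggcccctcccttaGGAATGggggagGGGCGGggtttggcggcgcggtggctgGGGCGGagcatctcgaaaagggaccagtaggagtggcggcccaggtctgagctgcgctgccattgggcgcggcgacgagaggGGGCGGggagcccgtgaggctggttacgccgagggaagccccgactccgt
The 5 windows are rich in G and C, at 72.8%, 70.0%, 71.2%, 76.4% and 70.4% in the order shown, against a median of 58.0% over all 35116 windows of the same length. That does not hold for every member. The ITGAM window was at 53.2%, with 2 GC boxes, and the 20 members with 1 start ranged from 30.0% (ITGB6) to 84.4% (FERMT2). GC boxes numbered 4 in ITGA2, 3 in VCL, 2 in ITGB8, 1 in ITGA5 and 0 in ITGA4, and 42.6% of all windows hold at least 1. The TEAD motif matched once in ITGA5, 77 to 82 bases before the start, and once in VCL, 166 to 171 bases before it, which is 1 gene that rose and 1 that fell, and 11.9% of all windows hold it. TGANTCA (AP-1, 6.57% of all windows), CACCTG (an E-box, 17.5%) and CTTTGAT (TCF/LEF, 2.26%) matched in none of the 5. None of the matches shown overlaps another. A match is a stretch of letters and no evidence of binding.

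Of the talins and kindlins, which activate integrins, only FERMT1 was called. TLN1, the main talin, was at 18.7, 14.6 and 18.5, and TLN2 at 3.68, 3.70 and 3.40. The TLN1 locus in the table is shared with CREB3 and GBA2, and that of TLN2 with MIR190A. FERMT2, the kindlin of mesenchymal and many other cells, was at 55.3, 50.7 and 51.3 (log2 -0.11 ± 0.37 over the course). FERMT1 (chromosome 20, 6055492 to 6104191), the kindlin of epithelia, was at 2.90, 1.86 and 0.406. It fell by 2.20 ± 0.59 from day 3 to day 5 and was 7.13-fold lower on day 5 than on day 0. FERMT3, the kindlin of blood cells, stayed between 0.322 and 0.691 with no call, and its locus is shared with TRPT1.

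In the ILK complex the scaffold itself showed no called change and the parvins moved in different directions. ILK was at 56.9, 43.7 and 56.0 and LIMS1 at 8.62, 9.30 and 7.78, none of it called. The ILK locus in the table is shared with TAF10. PARVA (chromosome 11, 12399026 to 12556903), which links ILK to actin, rose from 2.02 and 2.86 to 5.19, with 1.36 ± 0.46 on the log2 scale over the course. Its later step alone was also called (0.86 ± 0.44). PARVB (chromosome 22, 44395091 to 44565112) fell from 8.07 to 3.51 by day 3 (-1.20 ± 0.53) and was 3.48 on day 5. On day 0 PARVB was higher than PARVA, and on day 5 PARVA was higher than PARVB, a crossing that was not itself tested. PARVG, the parvin of blood cells, was at 1.26, 0.0242 and 0.0415. It was called over the course (-4.92 ± 1.59) but not by day 3, where the fall in FPKM was larger (log2 -5.70 ± 2.93, q of 0.447 in the authors' deposited table). LIMS2 went from 1.69 to 1.02 and 0.661 and fell over the course by 1.36 ± 0.55 (q of 0.0452 in the authors' deposited table), and its locus overlaps GPR17.

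Of the remaining adhesion proteins, vinculin and paxillin fell by day 3. VCL (chromosome 10, 75757872 to 75879914), which ties talin to actin under load, was at 126.9, 70.1 and 86.1, the highest adaptor on day 0. It fell by 0.86 ± 0.41 to day 3 (q of 0.0209 in the authors' deposited table), and day 5 was not called against day 0 (-0.56 ± 0.40). At q below 0.01, under the normal p or with a change of at least 2-fold, VCL lost its call by day 3 and PXN kept its own. PXN (chromosome 12, 120639094 to 120703574), a docking protein for signalling at adhesions, was at 37.4, 17.3 and 20.8. It fell by 1.11 ± 0.40 to day 3 and was still lower on day 5 (-0.85 ± 0.41). ZYX, a sensor of tension on actin fibres, was at 84.7, 74.9 and 58.0, and PTK2 at 34.8, 39.2 and 46.0, neither called in any comparison. The ZYX locus in the table spans EPHA1 and 3 further genes, and that of PXN an uncharacterised gene.

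**Figure D4:**
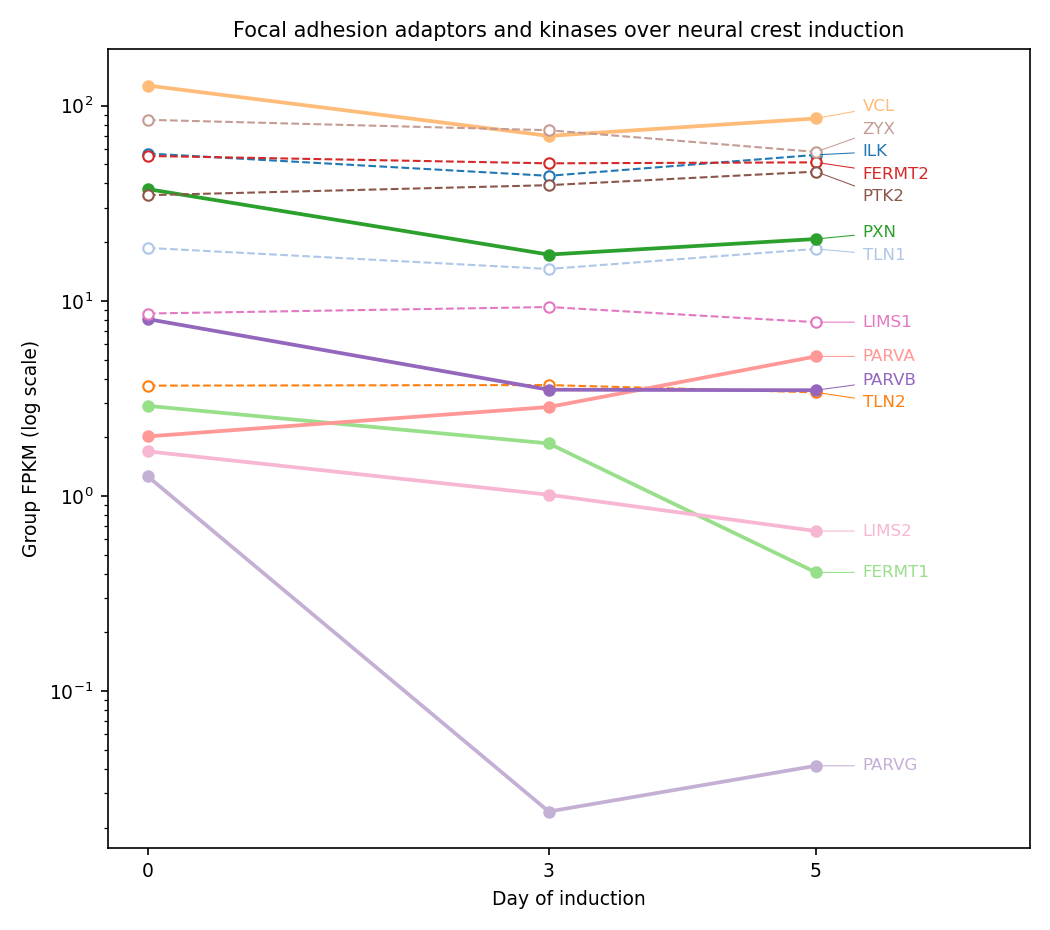
Group FPKM on a log axis against day of induction for the 14 adaptors and kinases that reached an FPKM of at least 1, drawn as filled points on solid lines where called in at least 1 comparison and as open points on dashed lines where called in none. VCL and PXN are lowest on day 3, PARVA and PARVB cross, and ILK, FERMT2, TLN1 and LIMS1 are never called.

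Ligands of these receptors were given by a list of 48 matrix and adhesion genes. By day 3, 12 of 45 tested were called higher and 19 lower, and from day 3 to day 5, 18 of 42 were higher and 2 lower. The share called, 68.9% and 47.6%, compares with 20.6% and 12.6% of all genes tested. The median log2 ratio of FPKM plus 1 over the tested ligands was -0.31 and then 0.39, beside 0.03 and -0.04 over all genes tested. FN1, the ligand of ITGA5 with ITGB1, was at 13.0, 13.4 and 29.1 and rose over the course (log2 1.16 ± 0.39), the call falling in the second step. VTN, the ligand of ITGAV with ITGB5, was called higher at a low level, from 0.147 to 1.38.

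Laminin chains, the ligands of ITGA3, ITGA6 and ITGA7, did not move together. LAMA1 rose from 9.42 to 28.3 and LAMB1 from 16.2 to 42.0 over the course, while LAMC1 (26.3 to 30.1) and LAMB2 (15.4 to 14.5) were not called. LAMA5 fell from 28.4 to 10.9 and LAMC3 from 3.90 to 0.0866. Among collagen IV chains of the basement membrane, COL4A5 rose from 7.33 to 29.3 and COL4A6 from 4.88 to 29.8, and COL4A1 (22.0 to 29.1) and COL4A2 (24.7 to 31.7) were not called. The 5 ligands with the largest called change over the course, at an FPKM of at least 5, were COL2A1, the cartilage collagen (4.89 to 122.7), MFGE8, an RGD protein that binds ITGAV receptors (728.6 to 69.1), TNC, tenascin C, a ligand of ITGA9 (1.12 to 12.3), COL4A6 and FBN1, fibrillin (0.939 to 9.02).

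Of 53 other adaptors and kinases of focal adhesions, 9 of 51 tested were higher and 11 lower by day 3, and 4 and 1 from day 3 to day 5. The share called was 39.2% and then 9.80%, against 20.6% and 12.6% of all genes tested. NEDD9, a docking protein of adhesion signalling, rose from 3.23 to 21.8 over the course. FLNC, a filamin that crosslinks actin, rose from 1.99 to 14.6 and DAB2, an endocytic adaptor, from 1.13 to 8.37. The adhesion protein TES fell from 13.2 to 3.39 and CAV1, the coat protein of caveolae, from 6.42 to 1.22.

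Of 29 actomyosin genes 4 were higher and 2 lower by day 3, 20.7% together, and 4 higher and 0 lower from day 3 to day 5, 13.8%, both near the shares of all genes tested. Over the course 7 were higher and 1 lower, 24.1% and 3.45%, against 12.2% and 14.7% of all genes tested. ACTA2, smooth muscle actin, rose from 4.41 to 265.5, RHOB, a small GTPase, from 16.1 to 92.0 and MYLK, the kinase of myosin light chain, from 3.26 to 11.6. TAGLN, an actin-binding protein, rose from 298.3 to 736.8 and TPM2, a tropomyosin, from 207.9 to 506.9. ROCK1 (14.1, 14.1 and 15.4) and ROCK2 (5.81, 6.23 and 8.38), the targets of Y-27632, were not called.

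Of 21 further matrix receptors and integrin-associated proteins, 4 were higher and 6 lower by day 3 and 3 higher and 4 lower in the next step. These are 47.6% and 33.3% of the list, against 20.6% and 12.6% of all genes tested. CD9, a tetraspanin that associates with ITGB1 integrins, had the largest change, with values of 127.2, 11.9 and 2.40, and fell in both steps. Of the other tetraspanins CD82 rose from 4.08 to 14.1 and TSPAN4 fell from 54.4 to 22.0 over the course. CD47, an integrin-associated protein, rose from 2.71 to 9.82. SLC3A2, which binds beta tails, fell from 187.5 to 72.9.

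**Figure D5:**
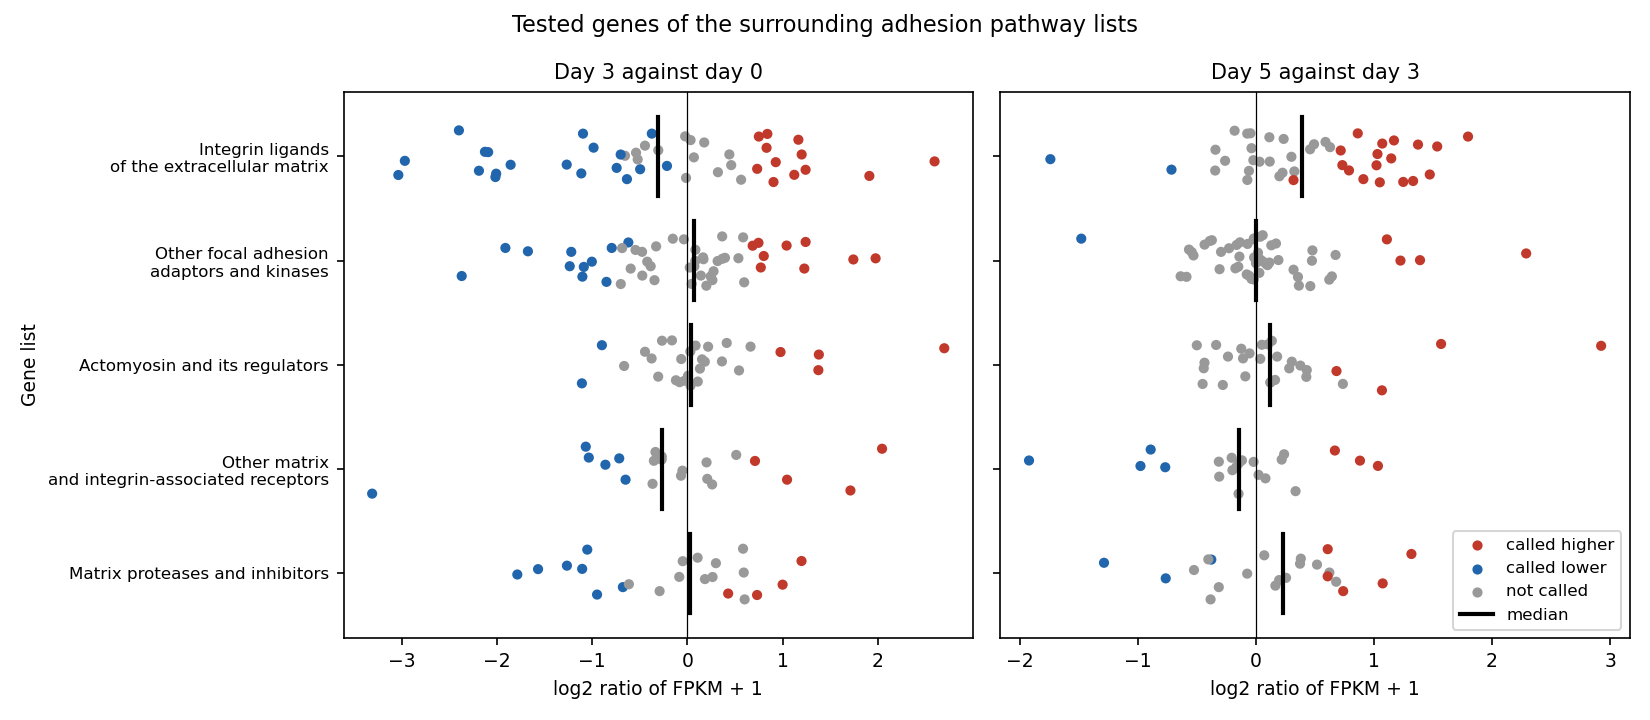
Log2 ratio of FPKM plus 1 for the tested genes of 5 surrounding lists, day 3 against day 0 on the left and day 5 against day 3 on the right; each point is 1 gene, coloured by its call, and the black bar is the median. The ligand list has most of its called genes to the left of 0 by day 3 and to the right of 0 in the later step, with medians of -0.31 and 0.39.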

How the data were processed

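Poly-adenylated RNA of 6 libraries in 3 groups was sequenced. Per the submitters' processing notes, TopHat2 2.0.10, TopHat and Cuffdiff 2.1.1 were used with the genome build hg19, whereas the annotation is not given in the sources used here, nor is strandedness. The deposited table has 69852 rows, and per the file headers it holds the authors' FPKM value of each group, their test statistic (used as a score), p-value and q-value for each pair of days. The smallest deposited p-value was 5e-05. The deposited q equals a Benjamini-Hochberg adjustment over the 48572 tested rows to within 5.25e-07.

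With Python 3.11.15 and pandas 2.3.3, genes with the status OK counted as tested, and those with Cuffdiff's q below 0.05 as called. The implied standard error is the log2 ratio divided by the test statistic, and it does not always match the q. A pseudocount of 1 was used for medians, which understates changes of low genes. Locus starts were taken as counted from 0 and printed from 1, and 13 members share their locus with another gene. The adjustment and error formulas were tested on simulated data. Members and lists were chosen with earlier results of these data known. By rule, all members are accounted for, with values for those at an FPKM of at least 1 on any day and folds for called members. From each list up to 5 called genes with the largest change over the course and an FPKM of at least 5 are named, with the ligands that pair with a named subunit. ROCK1 and ROCK2 were named outside that rule, after their values were seen, as the targets of Y-27632. Alternatives changed the q threshold, p-value, adjustment, filters, pseudocount and scaling. No replicate could be left out.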

Additional observations from a re-analysis of the deposited data

How the results depend on the processing

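No paired analysis was possible because the table gives 1 value per group, and for the same reason no library could be left out. At q below 0.01 the members called lower numbered 5 by day 3 and 7 over the course, and those called higher from day 3 to day 5 numbered 2. Under a normal p from the test statistic 4 were called lower by day 3, and 2 higher and 1 lower from day 3 to day 5. Asking for a change of at least 2-fold left 2 called higher from day 3 to day 5. The cause of these differences was not tested, beyond the stricter threshold itself. The shares of all genes called under these settings were not computed, so the counts have no background beside them. Whether members lost more calls than other genes is therefore not known. The other 50 summary values stayed within 1.5 times the count, or within the median implied standard error for medians. That error, 0.46 to 0.47, belongs to single genes and is larger than every median found, so the medians could hardly fail. The median by day 3 was -0.36 for members at an FPKM of at least 1, against -0.15 for all, and still counted as unchanged. Rescaling FPKM to the same sum on each day shifts every log2 ratio by 0.0089 by day 3, 0.22 from day 3 to day 5 and 0.23 over the course. It turned the median of all 40 members over the course from -0.08 to 0.018. Of 138 recomputed ratios of 17 named members 3 turned sign, all without a call and from day 3 to day 5, namely ITGB5 rescaled (0.016) and PARVB centred on expressed genes (0.051) or rescaled (0.21). No called ratio could turn sign under these settings. Adding 1 keeps every sign, and centring or rescaling shifts a ratio by 0.23 at most, while called ratios were at least 0.77 in size. The signs of called members were therefore not put to a test. The depth of the libraries is unknown, so no limit of detection can be given for members near 0.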

Other observations

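Matrix proteases and their inhibitors, a list of 22 genes, were outside the comparisons above. By day 3, 4 were called higher and 7 lower, and from day 3 to day 5, 5 higher and 3 lower. These are 11 and 8 of the 22 in all, beside 20.6% and 12.6% called of all genes tested. The membrane-bound metalloproteases MMP15 (23.1, 11.5 and 6.35 on day 0, 3 and 5) and MMP17 (22.9, 5.93 and 1.84) fell in both steps. MMP14, a membrane-bound collagenase, fell from 26.9 to 8.41 by day 3 and stood at 12.5 on day 5. The secreted gelatinase MMP2 rose from 16.9 to 28.8 by day 3 and was 34.5 on day 5. ADAM17, a membrane protease that sheds surface proteins, rose from 9.04 to 18.7 over the course.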
